A study of Mus musculus with 12 samples.

Results

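The genes described are 10 regulators and markers of cell cycle exit, Cdkn1a, Cdkn1b, Cdkn1c, Cdkn2c, Cdkn2d, Rb1, Ccnd1, Ccnd2, Mki67 and Top2a, taken from the 55416 genes counted in each library by matching their GENCODE names to the Ensembl identifiers of the count files. Inner hair cells (IHCs) and outer hair cells (OHCs), the sensory cells of the organ of Corti, were each sequenced as 6 bulk RNA libraries, and every mouse was wild type and at postnatal day 0 (P0). In the fluorescence sort IHCs carried GFP from an Atoh1 reporter alone, and OHCs carried GFP together with tdTomato that was switched on by a Cre expressed from the Insm1 locus, so an OHC pool holds whichever cells had that Cre activity. Each pool combined several pups of both sexes. Nothing in the labels ties an IHC pool to an OHC pool, and p-values measure the spread between pools. For its ATAC-seq pools, sorted by the same genetic strategy, the paper states that each pup gave both cell types. The RNA pools may therefore be matched, and the main test treats them as independent.

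Hair cell progenitors leave the cell cycle before birth, and mature mammalian hair cells do not normally divide again. Cyclin-dependent kinase (CDK) inhibitors hold this state by blocking the kinases that D-type and E-type cyclins activate, and Rb1 and the related pocket proteins keep E2F transcription factors from switching on genes for DNA replication and mitosis. Loss of several of these inhibitors, and of Rb1, is known to let cells of the organ of Corti re-enter the cycle. Mki67 and Top2a are made mainly by dividing cells and serve as markers of proliferation.

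Promoters of 3 members are shown, Cdkn2d because it held the largest share of CDK inhibitor transcripts in IHCs. Mki67 and Top2a are shown as targets of the repressive DREAM complex, which is known to act through cell cycle homology regions (CHR). RefSeq promoters, from 250 bases before to 50 bases after the transcription start (table build GRCm38.p6), were matched for 6 of the 10 members (Cdkn1a, Cdkn1b, Cdkn2c, Cdkn2d, Mki67 and Top2a). Each was then found once by exact match on its GRCm39 chromosome. The Cdkn2d window lies at chr9:21202456-21202755, the Mki67 window at chr7:135318059-135318358 and the Top2a window at chr11:98914966-98915265, all on the minus strand. Letters run 5′ to 3′ in the direction of the gene, and capitals mark matches, on either strand, to 4 motifs. These were the CCAAT box, the CHR spelled TTTGAA, its variant spelled TTCGAA, and an E2F site spelled GGCGGGAA.
Cdkn2d: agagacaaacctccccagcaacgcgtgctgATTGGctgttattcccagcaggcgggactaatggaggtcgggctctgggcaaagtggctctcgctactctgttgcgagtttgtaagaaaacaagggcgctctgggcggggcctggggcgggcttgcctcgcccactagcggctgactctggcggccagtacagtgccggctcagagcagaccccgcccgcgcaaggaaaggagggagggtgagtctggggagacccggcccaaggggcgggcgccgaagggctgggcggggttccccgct
Mki67: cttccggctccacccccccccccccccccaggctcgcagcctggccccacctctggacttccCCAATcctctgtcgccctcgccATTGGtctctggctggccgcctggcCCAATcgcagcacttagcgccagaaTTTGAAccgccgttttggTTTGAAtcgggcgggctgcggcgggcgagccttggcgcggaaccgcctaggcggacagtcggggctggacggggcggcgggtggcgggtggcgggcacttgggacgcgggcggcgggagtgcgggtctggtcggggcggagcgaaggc
Top2a: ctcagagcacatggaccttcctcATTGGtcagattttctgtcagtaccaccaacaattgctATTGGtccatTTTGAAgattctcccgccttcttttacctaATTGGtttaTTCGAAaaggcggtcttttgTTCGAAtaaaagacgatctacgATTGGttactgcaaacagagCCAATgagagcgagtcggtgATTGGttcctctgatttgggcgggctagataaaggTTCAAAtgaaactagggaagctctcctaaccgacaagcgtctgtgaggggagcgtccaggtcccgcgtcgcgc

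The Top2a window held 6 CCAAT matches, 2 TTTGAA matches and 2 TTCGAA matches. The Mki67 window held 3 CCAAT matches and 2 TTTGAA matches. The Cdkn2d window held 1 CCAAT match and no match to the other letters. No matches overlapped in these 3 windows. Among 32544 distinct RefSeq promoter windows of the same length, 37.4% held CCAAT, 17.8% TTTGAA, 1.56% TTCGAA and 2.20% GGCGGGAA, so the TTCGAA letters of Top2a are the least common of those found. These matches describe letters in a window and say nothing of what was bound there in these cells.

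Counts on genes ranged from 31490204 to 44017309 in IHC libraries and from 29564827 to 39121988 in OHC libraries. Defining markers were checked against the labels, and all 4 IHC markers (Tbx2, Slc17a8, Otof, Fgf8) were higher in IHCs and 4 of 5 OHC markers (Insm1, Bcl11b, Neurod6, Bmp2, but not Ikzf2) were higher in OHCs past the threshold. Insm1 is not an independent check, since OHCs were sorted by a Cre expressed from its locus. Of 12 markers of hair cells in general, Otof among them, 5 were called higher in IHCs and 0 higher in OHCs. Their sums did not overlap, at 6417 to 10542 CPM in IHC libraries and 4903 to 6190 CPM in OHC libraries. IHC replicate 1 stood apart, with 56.9% of its counts on ribosomal RNA against 21.5% to 37.0% in the other IHC libraries and a TMM scaling factor of 0.486. Summed endothelial markers (7 genes) were at 0.302 to 5.08 CPM (reads of the gene scaled to a fixed library total) in IHC libraries and at 15.4 to 199 CPM in OHC libraries, and 6 of the 7 were called higher in OHCs, while Cldn5 had 0 counts in every IHC library. Summed supporting cell markers (12 genes) overlapped, at 449 to 914 CPM in IHC libraries and 377 to 733 CPM in OHC libraries, with Sox2 and Gjb2 called higher in IHCs and Prox1 higher in OHCs. Summed markers of the greater epithelial ridge (7 genes, none called) were at 527 to 927 CPM in IHC libraries and 339 to 598 CPM in OHC libraries. Summed glial markers (6 genes) were at 148 to 266 CPM in IHC libraries and 74.0 to 126 CPM in OHC libraries, with Cnp called higher in IHCs, and summed spiral ganglion neuron markers (8 genes) at 279.6 to 667 CPM and 112 to 182 CPM, with Gata3 (which hair cells also express) and Ntrk3 called higher in IHCs, so the sums of both lists did not overlap. Summed mesenchyme markers (9 genes, none called) were at 121 to 216 CPM in IHC libraries and 144 to 232 CPM in OHC libraries. The part of these cells in the members' values was not tested. Erythroid markers were at most 3.20 CPM and macrophage markers at most 19.6 CPM in any library.

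Of the 10 members, 2 were higher in IHCs past the threshold, the D-type cyclin Ccnd1 and the CDK inhibitor Cdkn2d, and none was higher in OHCs. The test was edgeR's quasi-likelihood test with p adjusted by the Benjamini-Hochberg method over all 13269 genes that passed the filter on low counts, at a threshold of 0.05, and 8 of the 10 members were tested. Cdkn2c and Ccnd2 did not pass the filter and are described by their values. Over all genes tested, 506 (3.81%) were called higher in IHCs and 324 (2.44%) higher in OHCs, 6.26% in either direction. The IHC side held 61.0% of all calls in this fit and 45.7% with DESeq2. The median log2 fold change (OHC against IHC, negative where IHCs are higher) was -0.31 over the 8 members and -0.04 over all genes tested. CPM values use the TMM-scaled library size, and they cannot tell fewer cells expressing a gene from less RNA per cell.

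**Figure D1:**
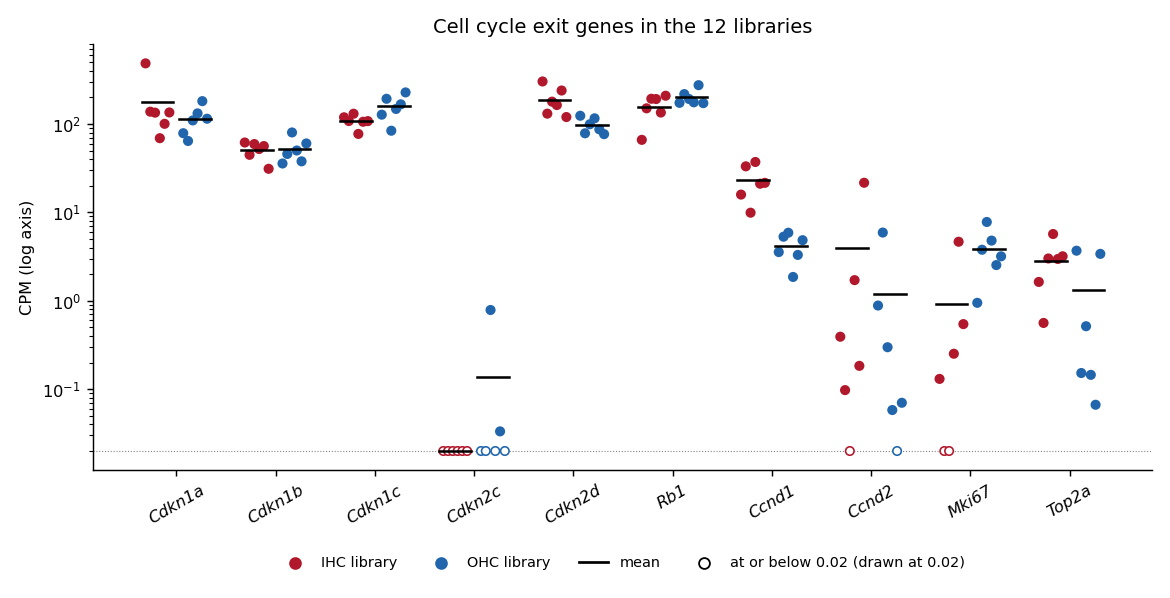
CPM of the 10 members in each of 6 IHC (red) and 6 OHC (blue) libraries on a log axis, with a black bar at the mean and open circles for values at or below 0.02 CPM. Ccnd1 is the member whose IHC and OHC libraries do not overlap, while Ccnd2, Mki67 and Top2a spread widely within a cell type.

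Ccnd1 (cyclin D1, the partner of Cdk4 and Cdk6 that starts the inactivation of Rb1) is on the minus strand at chr7:144483668-144493662 of GRCm39. Its lowest, median and highest levels were 9.92, 21.3 and 37.2 CPM in IHC libraries and 1.86, 4.20 and 5.89 CPM in OHC libraries. Every IHC library was therefore above every OHC library, a separation that 4.6% of all tested genes showed. IHC replicates 3 and 1, the lowest in Ccnd1, were also the lowest IHC libraries in summed greater epithelial ridge markers (527 and 573 CPM). IHC replicate 6, the highest in these markers (927 CPM), held 21.6 CPM of Ccnd1, and OHC replicate 1 (598 CPM) held 3.56 CPM. The part of other cells in the Ccnd1 values was not tested. The fit gave a log2 fold change of -2.49 ± 0.52 (SE, n = 6 and 6; edgeR quasi-likelihood adjusted p = 0.00578), 5.60-fold higher in IHCs. The call was kept in all 12 fits that left out 1 library, with log2 fold changes from -2.64 to -2.30. Of its exonic bases, 48.4% are shared with exons of LTO1 on the opposite strand, and the strand setting of the counting is not given in the sources used here, so reads of the overlap may have been set aside.

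Cdkn2d (p19Ink4d, an inhibitor of Cdk4 and Cdk6 needed to keep hair cells out of the cycle after birth) is at chr9:21199700-21202727, minus strand. It was measured at 119.8, 171 and 302 CPM (lowest, median and highest) in IHC libraries and at 76.7, 93.1 and 124 CPM in OHC libraries. 5 of 6 IHC libraries were above all OHC libraries, and the lowest IHC library, replicate 6, lay just under the highest OHC library, replicate 1. The log2 fold change was -0.97 ± 0.25 (SE; edgeR adjusted p = 0.0228), 1.95-fold higher in IHCs. Its highest value came from IHC replicate 1, the library rich in ribosomal RNA. Without that library the log2 fold change was -0.79 (edgeR adjusted p = 0.0354). The call was kept in 9 of 12 fits without 1 library and lost without IHC replicate 5 (edgeR adjusted p = 0.0503), OHC replicate 2 (0.0589) or OHC replicate 6 (0.0624), with log2 fold changes from -1.09 to -0.79 over the 12.

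The other INK4 gene among the members, Cdkn2c (p18Ink4c, chr4:109517957-109524386, minus strand), had 0 counts in all 6 IHC libraries and in 4 of 6 OHC libraries. OHC replicate 3 held 29 counts (0.787 CPM) and OHC replicate 5 held 1 count. A count of 0 allows up to 3 counts, which is 0.196 CPM in IHC replicate 1 and 0.0733 to 0.0919 CPM in the other IHC libraries, and this limit covers counting error alone. OHC replicate 3 was also the library with the most endothelial marker RNA (199 CPM), and the part of that RNA in this value was not tested. Of the remaining INK4 genes, Cdkn2a had 0 counts in all 12 libraries and Cdkn2b was at 0 to 3.95 CPM in IHC and 0.0291 to 8.95 CPM in OHC libraries.

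Among the CIP/KIP inhibitors, which bind a broader range of cyclin-CDK complexes, none passed the threshold in either direction. Cdkn1c (p57Kip2, chr7:143012069-143014806, minus strand) was at 77.2, 108 and 131 CPM in IHC libraries and at 83.9, 157 and 227 CPM in OHC libraries. 4 of 6 OHC libraries lay above every IHC library and OHC replicates 1 and 3 lay within the IHC range. The log2 fold change was 0.55 ± 0.24 (SE; edgeR adjusted p = 0.187). No fit without 1 library passed the threshold (edgeR adjusted p from 0.109 to 0.383). Of the exonic bases of Cdkn1c, 29.0% are shared with exons of Gm44732 on the opposite strand. Reads of that overlap may have been set aside, which would also hold for the TPM and share of Cdkn1c.

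Cdkn1b (p27Kip1, the inhibitor that marks the zone of cell cycle exit in the embryonic cochlea, chr6:134897364-134902476, plus strand) was at 31.1, 54.2 and 61.7 CPM in IHC libraries and at 35.7, 48.0 and 80.2 CPM in OHC libraries. The ranges overlapped almost fully. OHCs against IHCs gave a log2 fold change of 0.02 ± 0.29 (SE; edgeR adjusted p = 0.976), and its sign turned in 4 of the 12 fits without 1 library.

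Cdkn1a (p21Cip1, a target of p53, chr17:29309936-29319701, plus strand) was at 69.0, 135 and 485 CPM in IHC libraries and at 64.2, 112 and 181 CPM in OHC libraries. Its highest value came from IHC replicate 1, the library rich in ribosomal RNA, and the other IHC libraries lay between 69.0 and 138 CPM, inside the OHC range. The log2 fold change was -0.64 ± 0.38 (SE; edgeR adjusted p = 0.346), and it was -0.04 (adjusted p = 0.96) without IHC replicate 1.

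Rb1 (the retinoblastoma protein, chr14:73421113-73563507, minus strand) was at 66.1, 171 and 209 CPM in IHC libraries and at 172, 184 and 275 CPM in OHC libraries. IHC replicate 1 was again the library farthest out, here the lowest. On the log2 scale the difference was 0.35 ± 0.25 (SE; edgeR adjusted p = 0.436), from 0.18 to 0.44 in the fits without 1 library.

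Ccnd2 (cyclin D2, chr6:127102125-127129156, minus strand) was carried by single libraries of each cell type. IHC replicate 6 held 794 counts (21.6 CPM), and the other IHC libraries held 0 to 68 counts (0 to 1.71 CPM). OHC replicate 2 held 194 counts (5.91 CPM), and the other OHC libraries held 0 to 41 counts (0 to 0.884 CPM). IHC replicate 6 had the highest summed level of greater epithelial ridge markers (927 CPM), while OHC replicate 2 had the lowest (339 CPM). IHC replicate 5 came close to IHC replicate 6, at 893 CPM of these markers, and held 0.184 CPM of Ccnd2. IHC replicate 6 was also the highest IHC library in the supporting cell markers Prox1 (79.7 CPM, next 32.5 CPM) and Fgfr3 (73.3 CPM, next 11.8 CPM). OHC libraries express both genes at like or higher levels. The sum of all supporting cell markers was 678 CPM in IHC replicate 6 and 914 CPM in IHC replicate 5. The part of other cells in the Ccnd2 values was not tested.

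Mki67 (Ki-67, a coat protein of mitotic chromosomes, chr7:135291513-135318299, minus strand) was at 0, 0.191 and 4.66 CPM in IHC libraries and at 0.949, 3.48 and 7.79 CPM in OHC libraries. 5 of 6 IHC libraries were below every OHC library, and IHC replicate 5 was the exception with 152 counts against at most 20 in the others. In the fit the log2 fold change was 2.04 ± 1.25 (SE; edgeR adjusted p = 0.363), and without IHC replicate 5 it was 4.33 (adjusted p = 0.0634), still short of the threshold. The OHC library with the most Mki67, replicate 3, also had the highest summed endothelial markers (199 CPM). OHC replicate 1, with 58.4 CPM of endothelial markers, had the least Mki67. Whether Mki67 RNA came from endothelial or other dividing cells was not tested.

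Top2a (DNA topoisomerase II alpha, chr11:98883769-98915062, minus strand) did not follow Mki67. It was at 0.562, 2.99 and 5.69 CPM in IHC libraries and at 0.0667, 0.334 and 3.69 CPM in OHC libraries. 4 of 6 OHC libraries were below every IHC library, while OHC replicates 1 and 6 lay within the IHC range. Its fitted log2 fold change was -1.10 ± 1.04 (SE; edgeR adjusted p = 0.577), from -1.73 without OHC replicate 1 to -0.77 without IHC replicate 4 and not past the threshold in any of the 12 fits, so Mki67 and Top2a had fold changes of opposite sign and neither passed the threshold.

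Levels of different members were compared per length, as TPM (length-corrected counts scaled to a fixed total) over the union of annotated exons, within a library. In IHCs the order by median TPM was Cdkn2d (269), Cdkn1c (117), Cdkn1a (56.6), Rb1 (35.7), Cdkn1b (28.4), Ccnd1 (13.1), Top2a (0.888), Ccnd2 (0.0431) and Mki67 (0.0388). In OHCs it was Cdkn1c (217), Cdkn2d (176), Cdkn1a (57.9), Rb1 (52.0), Cdkn1b (32.4), Ccnd1 (2.81), Mki67 (0.994), Top2a (0.124) and Ccnd2 (0.0655). Cdkn2c, at 0 in every IHC library, was left out of both orders. By mean TPM, 108 of 21627 protein-coding genes exceeded Cdkn2d in IHCs and 159 exceeded Cdkn1c in OHCs.

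Of the 16 pairs of neighbours in these orders, none passed an exact two-sided sign-flip test of the log2 TPM ratio (pseudocount 0.1) after adjustment over the pairs, and with 6 libraries the smallest p a pair can reach is 0.0312, so that at least 11 of the 16 pairs would have had to reach it. The pairs and their direction were taken from the median TPM of the same libraries, so the test is no independent check of the order. The smallest adjusted p was 0.1 in this exact test, shared by the 5 pairs whose 6 libraries all gave the same order. In IHCs these were Cdkn2d over Cdkn1c (mean log2 ratio 1.12 ± 0.51, SD, n = 6), Cdkn1b over Ccnd1 (1.29 ± 0.89) and Ccnd1 over Top2a (3.81 ± 1.16). In OHCs they were Cdkn2d over Cdkn1a (1.69 ± 0.61) and Cdkn1b over Ccnd1 (3.70 ± 0.55). Cdkn1c and Cdkn2d in OHCs (0.28 ± 0.72, higher in 3 of 6 libraries), Cdkn1a and Rb1 in OHCs (0.11 ± 0.49) and Rb1 and Cdkn1b in IHCs (0.17 ± 0.86) differed by less than the spread between libraries. With the longest transcript as length, Rb1 over Cdkn1b was 1.43 in IHCs and 1.85 in OHCs (0.59 with the union of exons), and Cdkn1a over Rb1 in OHCs was -0.59.

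**Figure D2:**
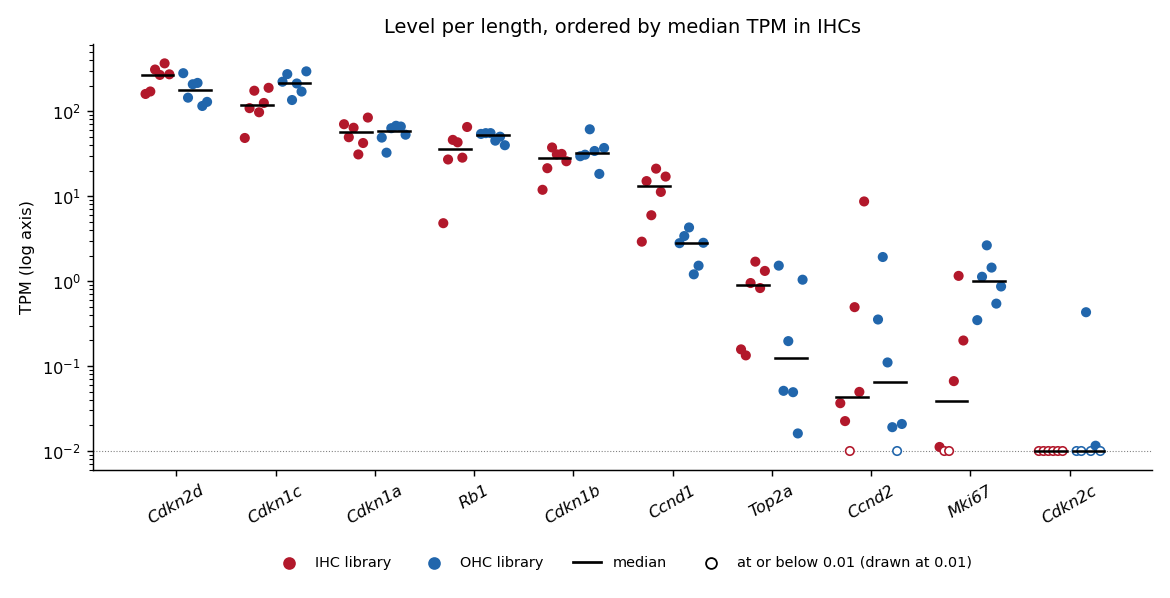
TPM of the 10 members in each IHC (red) and OHC (blue) library on a log axis, ordered by median TPM in IHCs, with a black bar at the median and open circles for values at or below 0.01 TPM. Cdkn2d and Cdkn1c are at the top in both cell types, and Ccnd2, Mki67, Top2a and Cdkn2c have medians below 1 TPM in both.

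As a share of the summed TPM of all 7 CDK inhibitor genes, Cdkn2d was 55.2% ± 7.2 (SD, n = 6; 47.2% to 64.8%) in IHCs and 36.4% ± 8.92 (25.1% to 47.2%) in OHCs. Cdkn1c was 25.8% ± 6.27 (16.7% to 32.7%) in IHCs and 44.4% ± 11.2 (28.9% to 57.3%) in OHCs. Cdkn2d was the largest share in all 6 IHC libraries, and in OHCs it exceeded Cdkn1c in replicates 1, 3 and 4. Cdkn1a made up 7.26% to 24.2% in IHC libraries and 6.73% to 17.8% in OHC libraries, and Cdkn1b 4.09% to 7.27% and 4.94% to 13.1%. These shares restate the TPM values of the members and are given without a test.

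**Figure D3:**
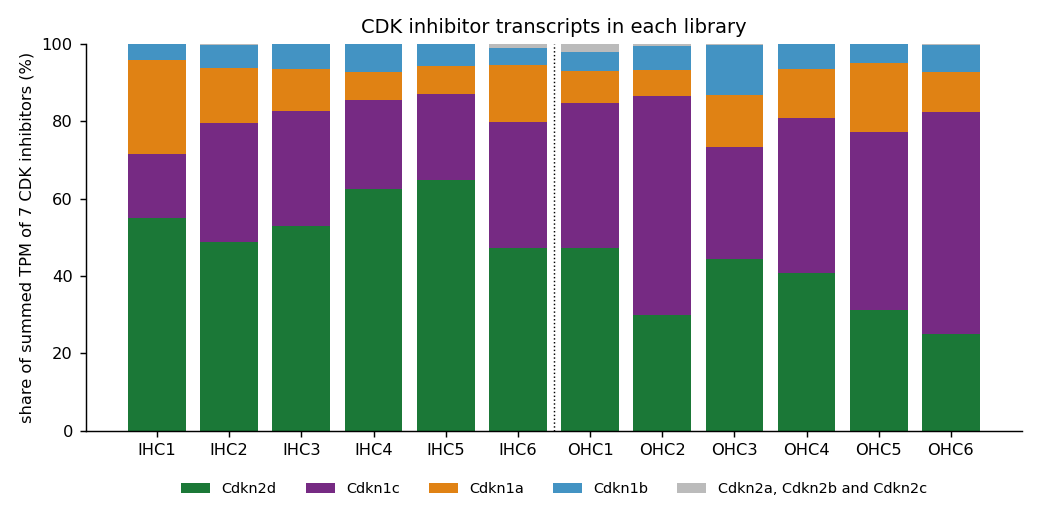
Stacked bars give each CDK inhibitor's share (%) of the summed TPM of 7 inhibitor genes in each library, IHC1 to IHC6 left of the dotted line and OHC1 to OHC6 right of it. Cdkn2d (green) fills 47.2% to 64.8% of each IHC bar, and Cdkn1c (purple) fills 28.9% to 57.3% of each OHC bar.

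The members also differed in how steady they were, and not alike in both cell types. The coefficient of variation (CV) of Cdkn1c over the 6 IHC libraries was 16.5%, and 3.82% of the tested genes within 1.5-fold of its level had a lower one, with a median CV of 36.9%. In OHCs the CV of Cdkn1c was 31.9% against a median of 22.2%, and 83.8% of genes of like level had a lower one. Cdkn1b had a CV of 22.3% against a median of 44.1% in IHCs, and of 32.0% against 32.3% in OHCs. At the other end, Cdkn1a in IHCs had a CV of 86.6%, above 97.0% of genes of like level, through IHC replicate 1. Ccnd1 in OHCs had a CV of 36.2% against a median of 87.9%, and Mki67 in IHCs 197% against 112%, through IHC replicate 5.

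The wider cell cycle machinery was taken from 7 lists of 80 genes in all, of which 10 are the members. The 70 other genes had 49 tested, with 1 called higher in IHCs, 1 called higher in OHCs and 47 not called, and a median log2 fold change of 0.17 against -0.04 over all genes tested. Read against the 3.81% and 2.44% of all genes, 1 call in each direction among 49 is no more than the background. A list of 13 p53 target genes, Cdkn1a among them, had 11 tested, with 1 called higher in IHCs and 2 called higher in OHCs.

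Among the 9 G1 cyclins and kinases, 8 were tested and 2 called, both higher in IHCs, Ccnd1 and its kinase partner Cdk6. Cdk6 was at 7.26 to 52.0 CPM in IHC libraries and 0.40 to 5.53 CPM in OHC libraries, without overlap. Its log2 fold change was -2.85 ± 0.68 (SE; edgeR adjusted p = 0.0146), and the call was kept in all 12 fits without 1 library. Cdk4, the other kinase of D-type cyclins, had a log2 fold change of -0.12 ± 0.30 (adjusted p = 0.848) and the highest TPM of this list in both cell types, 79.5 ± 28.7 in IHCs and 101 ± 15.6 in OHCs (SD, n = 6), values that are not scaled between libraries and do not give the direction of a difference. The third D-type cyclin, Ccnd3, was at 11.6 to 112 CPM in IHC libraries and 4.50 to 19.4 CPM in OHC libraries (log2 fold change -1.32 ± 0.56, adjusted p = 0.17), with its highest value in IHC replicate 1. Of summed D-type cyclin TPM, Ccnd1 made up 21.5% to 84.4% in IHC libraries and 15.7% to 61.3% in OHC libraries, and Ccnd3 the larger part of the rest.

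**Figure D4:**
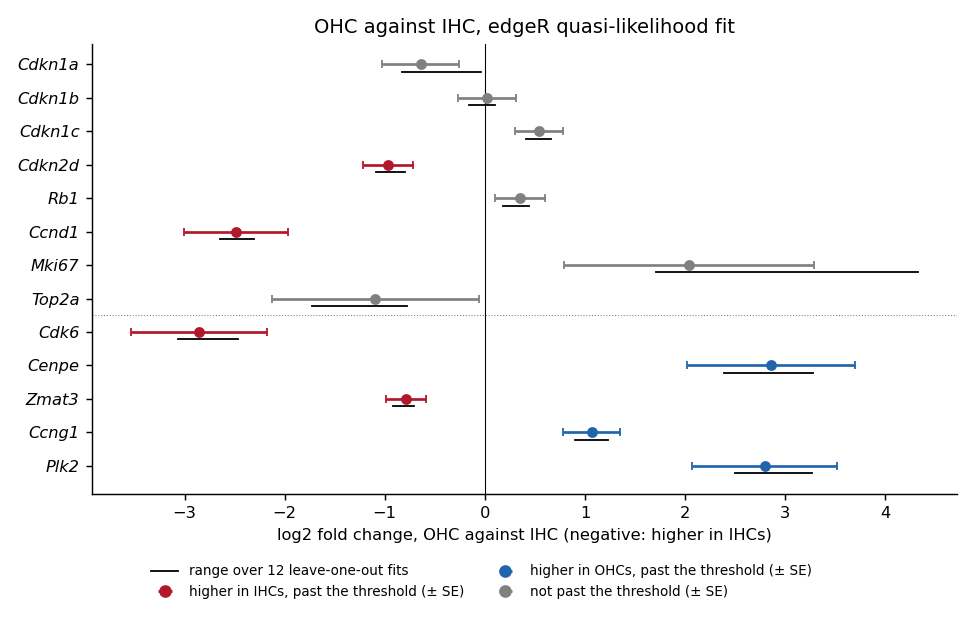
Log2 fold change (OHC against IHC) with its SE for the 8 tested members, above the dotted line, and the other called cell cycle and p53 target genes, below it, with black lines for the range over 12 fits that each left out 1 library. Ccnd1, Cdkn2d, Cdk6 and Zmat3 are on the IHC side and Cenpe, Ccng1 and Plk2 on the OHC side past the threshold, and the range of Mki67 reaches 4.33.

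None of the 12 pocket protein and DREAM complex genes was called, with all 12 tested and a median log2 fold change of -0.08. The genes with the highest TPM there were Rb1 and Tfdp1 (the dimer partner of E2Fs), the latter at 43.5 ± 16.5 TPM in IHCs and 41.7 ± 14.1 TPM in OHCs (SD, n = 6). Of the 6 activating and atypical E2Fs 4 were tested and none called, with E2f3 (18.7 ± 14.4 and 23.5 ± 18.5 TPM) and E2f2 (7.27 ± 8.29 and 12.2 ± 6.86 TPM) the highest. Of the 6 genes listed for the turnover of p27Kip1 and its control, all were tested and none called. The ubiquitin ligase subunits Skp1 (434 ± 159 and 684 ± 101 TPM) and Rbx1 (15.8 ± 9.03 and 30.9 ± 7.44 TPM) were the highest by the mean over all 12 libraries. In IHCs, however, Cks1b (16.8 TPM) and Cul1 were above Rbx1. Of 15 DNA replication genes 9 were tested and none called, led by the sliding clamp Pcna (17.2 ± 5.38 and 24.3 ± 10.9 TPM) and the helicase subunit Mcm6 (3.68 ± 2.74 and 11.0 ± 5.56 TPM) by the mean over all 12 libraries, although in IHCs Mcm2 (4.57 TPM) was above Mcm6. Cdc45, chosen after its values were seen, had 0 counts in every OHC library and did not pass the filter of the main test. It was at 6.78 CPM in IHC replicate 3 and at most 0.756 CPM in the other IHC libraries. Cdc45 passed the threshold on the IHC side with DESeq2 (log2 fold change -8.02, DESeq2 adjusted p = 0.000249) and with edgeR without a filter (-8.56, edgeR adjusted p = 0.0218).

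The G2 and mitosis list of 25 genes, Mki67 and Top2a among them, had 13 tested, 1 called higher in OHCs and none higher in IHCs. Its summed level was 14.9 to 50.6 CPM in IHC libraries and 35.1 to 94.1 CPM in OHC libraries. The called gene was Cenpe (the kinetochore motor CENP-E), at 0.0523 to 4.81 CPM in IHC libraries and 2.91 to 37.2 CPM in OHC libraries, with 5 of the 6 OHC libraries above every IHC library. Its log2 fold change was 2.86 ± 0.84 (SE; edgeR adjusted p = 0.0472). The call was kept in 3 of 12 fits without 1 library and lost under RLE scaling (edgeR adjusted p = 0.0501) and with replicate number as a block (edgeR adjusted p = 0.0763). Foxm1, a transcription factor of G2 genes and next by mean TPM over the 12 libraries, had a log2 fold change of -0.49 ± 0.98 (adjusted p = 0.812).

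By mean level, 12 of the 25 genes were over 1 CPM in IHCs and 11 in OHCs. Counts of 0 in all 6 IHC libraries were found for 4 of the 25, Cdk1, Aurkb, Bub1 and Ttk, and in all 6 OHC libraries for none. Cdk1, the kinase of mitosis, was at 0.0305 to 1.85 CPM in OHC libraries and Ttk, a kinase of the spindle checkpoint, at 0 to 0.862 CPM, while Aurkb and Bub1 reached 0.14 CPM at most. None of the 4 passed the filter of the main test. Cdk1 and Ttk passed the threshold on the OHC side with DESeq2 (adjusted p = 0.00221 and 0.0179) and with edgeR without a filter (adjusted p = 0.0407 and 0.0499). Ccna2 (cyclin A2), chosen after its values were seen, was at 0 to 0.171 CPM in IHC libraries and 0.14 to 2.06 CPM in OHC libraries and did not pass the filter of the main test. It passed the threshold with DESeq2 (log2 fold change 4.43, DESeq2 adjusted p = 0.000166). The summed level of the list in IHC replicate 5, the IHC library with the most Mki67, was 37.5 CPM, below the 50.6 CPM of IHC replicate 1.

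**Figure D5:**
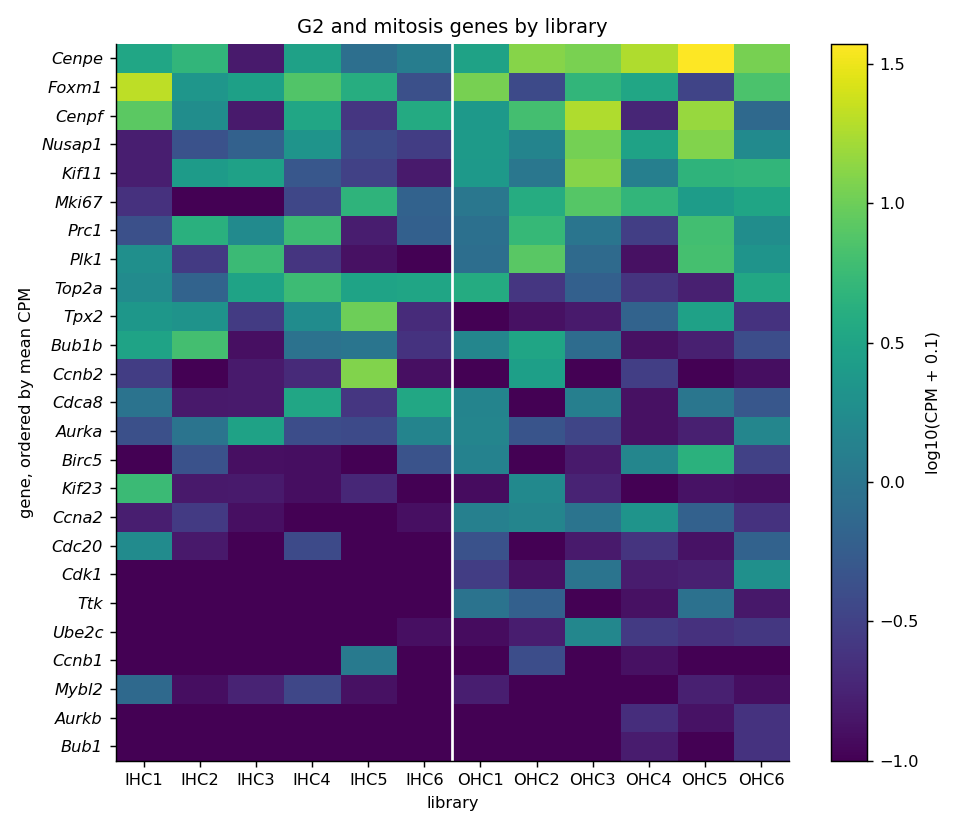
Heat map of log10(CPM + 0.1) for the 25 G2 and mitosis genes (rows, ordered by mean CPM) in IHC1 to IHC6 and OHC1 to OHC6 (columns, split by the white line). The brightest cell is Cenpe in OHC5, at 37.2 CPM, and Cdk1, Ttk, Aurkb and Bub1 are at 0 in the 6 IHC libraries.

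Among p53 targets, Zmat3 (an RNA-binding zinc finger protein) was higher in IHCs and Ccng1 (cyclin G1) and Plk2 (a polo-like kinase) were higher in OHCs, so the called targets did not share a direction. Zmat3 was at 409 to 694 CPM in IHC libraries and 219.5 to 459.8 CPM in OHC libraries (log2 fold change -0.79 ± 0.20, SE; edgeR adjusted p = 0.0228), a call lost without OHC replicate 2, 4 or 6 (adjusted p = 0.0556, 0.0512 and 0.0548). Ccng1 was at 30.3 to 106 CPM in IHC libraries and 108 to 177 CPM in OHC libraries, without overlap (1.07 ± 0.29; adjusted p = 0.0293), and its call was lost in 5 of 12 fits, without IHC replicate 5 or without OHC replicate 1, 4, 5 or 6 (adjusted p from 0.0532 to 0.0643). Plk2 was at 0.272 to 10.8 CPM in IHC libraries and 5.27 to 57.9 CPM in OHC libraries (2.79 ± 0.72; adjusted p = 0.0237), with a call lost without IHC replicate 5 or OHC replicate 3 or 4 (adjusted p = 0.0524, 0.0512 and 0.0697). Cdkn1a, the best known target of p53, was not called, and Btg2 (an antiproliferative factor), next to Zmat3 by mean TPM over the 12 libraries, had a log2 fold change of 0.02 ± 0.27 (adjusted p = 0.973).

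The genes whose log2 CPM was most like that of each tested member over the 12 libraries are given as a description, since the libraries share cell type and depth. Ccnd1 was most like Col25a1 (Pearson r = 0.916, Spearman rho = 0.951) and Dnah11 (0.906 and 0.888), and Cdkn2d most like Apbb3 (0.948 and 0.888) and Sms-ps (0.924 and 0.916). Rb1 was most like Phaf1 (0.951 and 0.874) and Zfp644 (0.951 and 0.741), and Cdkn1a most like Rps29 (0.942 and 0.762) and Gmeb1 (0.934 and 0.895), with IHC replicate 1 far out in both members. Cdkn1b was most like Polr3c (0.846 and 0.811) and Pcnt (0.828 and 0.762), and Cdkn1c most like Arl6ip1 (0.821 and 0.825) and Msmo1 (0.808 and 0.762). Mki67 was most like Stx1a (0.952 and 0.823) and Utp18 (0.931 and 0.844), and Top2a most like Bckdk (0.954 and 0.86) and Tob2 (0.933 and 0.888). None of these 16 genes was on the cell cycle lists.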

How the data were processed

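Bulk RNA-seq of 6 IHC and 6 OHC pools was analysed from the raw counts of reads per gene that the authors deposited, 55416 genes and 5 summary lines per library. By the submitters' processing notes and the study's methods, reads were trimmed with Trimmomatic, aligned with STAR in 2 passes to GRCm39 (GENCODE vM27), and counted with HTSeq in intersection-nonempty mode. Tool versions and the strand setting are not given in the sources used here. RNA was depleted of ribosomal RNA and cDNA was amplified, and reads carry no molecular identifiers, so limits from counts cover counting error only. The summary lines were left out of library sizes and tests (reads without a feature, 9.32% to 33.3%).

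Genes were filtered with filterByExpr, which took the cell types as groups (at least 10 counts, and 15 in total), scaled by TMM and compared with glmQLFit and glmQLFTest in edgeR 4.0.16 (R 4.3.3), with Benjamini-Hochberg adjustment over 13269 genes and a threshold of 0.05. CPM used no pseudocount, and log2 CPM for likeness a prior count of 2. TPM used the union of exons of GENCODE vM39, which matched 98.8% of identifiers, and coordinates are those of vM39 on GRCm39. The denominator of TPM includes ribosomal RNA, so it was tested within libraries only, and TPM values printed for both cell types are not a comparison between them. Scripts were tested on simulated data.

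Alternatives were RLE scaling, DESeq2 1.42.0, edgeR's exact test, no filter, a filter of 10 counts in every library, ribosomal RNA left out, a replicate block, each library left out in turn, and for TPM the longest transcript as length. The members and lists were chosen with earlier results of these data known. Named genes were all members, each cell cycle list's called genes and its 2 highest by mean TPM, and each tested member's 2 most correlated genes. Named outside this rule, after their values were seen, were Ccna2, Ccnd3, Cdc45, Cdk1, Aurkb, Bub1, Ttk, Cdkn2a and Cdkn2b, and the markers Prox1 and Fgfr3 beside Ccnd2. Also chosen after values were seen were the order by median TPM (first run by mean TPM), the pseudocount of 0.1, the omission of Cdkn2c from that order, the count over 7 lists without the p53 targets, and the 1.5-fold window for the CV.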

Additional observations from a re-analysis of the deposited data

Results flagged for a closer look

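A gap test (Dixon, 95% level) was run on each of 15 genes in each cell type, where a group had more than 3 counts. The genes were the 10 members and Cdk6, Cenpe, Ccng1, Plk2 and Zmat3. Chance alone flags about 1 in 20 groups of normally distributed values. For skewed low counts, such as those of Cdkn2c and Ccnd2, that rate does not hold, and the rate by chance was not measured. The test singled out 5 values, all the highest of their 6 libraries. Cdkn1a was at 485 CPM in IHC replicate 1, with the next IHC library at 138 CPM. Ccnd2 was at 21.6 CPM in IHC replicate 6, with the next at 1.71 CPM, and at 5.91 CPM in OHC replicate 2, with the next at 0.884 CPM. Mki67 was at 4.66 CPM in IHC replicate 5, with the next at 0.545 CPM. Cdkn2c was at 0.787 CPM in OHC replicate 3, with the next at 0.0334 CPM.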

How the results depend on the processing

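Under the 7 alternatives fitted on the counts, Ccnd1 and Cdkn2d stayed the 2 members called, both higher in IHCs, and no member was called higher in OHCs. Without 1 library each, 1 to 2 members were called higher in IHCs. Genes called higher in IHCs numbered 1339 with DESeq2 and 893 without a filter, and higher in OHCs 1590 with DESeq2, 519 with the exact test and 918 without a filter, and without 1 library 369 to 551 and 225 to 402. Of the 7 cell cycle lists, 5 genes were higher in IHCs with DESeq2 and 2 to 3 without 1 library. Higher in OHCs were 0 genes under RLE scaling, 9 with DESeq2, 3 with the exact test, 4 without a filter, 0 under the strict filter, 0 to 2 without 1 library, and 3 with the p53 targets included, a count added after seeing the data (4 in IHCs). Where the quasi-likelihood fit gave 0, 2916 genes under RLE scaling and 2209 under the strict filter had an unadjusted p under 0.05 over all genes. DESeq2 and the fit without a filter tested more genes, and the causes of the other changes were not tested.

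Same-numbered libraries did not deviate together, since the correlation of their deviations ran from -0.031 to 0.018 and no library was closest to its own number. No IHC and OHC library of any numbers reached a correlation above 0.0529, so this check cannot tell whether pools shared pups. With the replicate block, 512 and 391 genes were called, the cell cycle lists kept 3 genes higher in IHCs, and E2f1 was called higher in OHCs in place of Cenpe. The log2 fold change of Top2a was -2.24 with the block. For Cdkn1b the log2 fold change, 0.02, turned to -0.00066 with the replicate block and ranged from -0.16 to 0.10 without 1 library (-0.01 and -0.10 without IHC replicate 2 and 6, -0.16 and -0.03 without OHC replicate 3 and 6).

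In the order by TPM, no pair passed with the longest transcript as length or without ribosomal RNA, nor when ordered by mean TPM, with a pseudocount of 1 or with Cdkn2c included, all 3 added after seeing the data. The mean put Ccnd2 above Top2a in IHCs on replicate 6, although Top2a was higher in 5 of 6 libraries (mean log2 ratio -1.14). With the longest transcript as length, Cdkn1a over Rb1 in OHCs turned to -0.59, and Rb1 over Cdkn1b rose to 1.43 in IHCs and 1.85 in OHCs. Without 1 library no pair could pass, whatever its values, since the smallest adjusted p is then 0.0625. In those fits Rb1 over Cdkn1b in IHCs ranged from -0.066 (IHC replicate 6) to 0.46, Ccnd2 over Mki67 in IHCs from -0.13 (IHC replicate 6) to 1.46, and Top2a over Ccnd2 in OHCs from -0.17 (OHC replicate 6) to 1.22.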
